A study of Mus musculus with 18 samples.

Results

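The comparison set livers of mice given an antisense oligonucleotide (ASO) against Mdm2 beside livers of mice given a control ASO, both on the HFHC diet. It was made over every gene of the deposited HFHC table, by taking the columns whose labels name these 2 treatments and this diet, and it covers 8 of the 18 samples of the series. All 8 samples are wild-type (WT) mouse liver. The 4 control samples (replicates 1, 2, 4 and 5) received GalNAc-conASO and the 4 treated samples (replicates 6, 7, 9 and 10) received GalNAc-Mdm2ASO, and the diet is named in the labels only by its abbreviation. Strain, age, sex, dose and the length of feeding or treatment are not given in the sources used here, nor is it said that each sample came from its own animal, so the p-values below measure only the spread between these samples. Replicates 6 and 7 were the same number for number across the 33235 genes, whereas each remaining pair of replicates on this diet had at least 18227 genes with unequal values, so they were counted as 1 library, written 6-7. The comparison therefore rests on 4 control and 3 Mdm2 ASO libraries, with 17770748 to 18798144 reads each.

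An ASO pairs with its target transcript, which RNase H then cuts, and GalNAc is a sugar that the asialoglycoprotein receptor of hepatocytes takes up. MDM2 is a ubiquitin ligase that marks the transcription factor p53 for degradation, and p53 in turn drives transcription of Mdm2 and of genes that stop the cell cycle, repair DNA or start cell death. In liver, p53 activity is known to alter lipid metabolism as well as cell division and survival. The bulk libraries hold RNA of hepatocytes together with that of macrophages, endothelium, stellate cells, bile duct cells and blood.

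Promoter sequences were taken from RefSeq on build GRCm38.p6 for the p53 target that is most studied and for genes of the phagocyte groups that the results turn on. Of 22 called p53-list genes with a promoter window (250 bases before to 50 after the start), 1 held the p53 consensus element, against 0.047% of the 12758 tested genes with a window. That gene was Cdkn1a. The element was searched as a pair of repeats with up to 13 bases between them. The capitals printed for Cdkn1a include the bases between its repeats. The motif GAGGAAGT, the form bound by the myeloid factor PU.1 (the product of Spi1), was searched on both strands and stood in 20 of 83 called phagocyte-list genes (24.1%), against 3.81% of tested genes with a window and 3.2% of all 32851 windows. The direct repeat read by PPAR nuclear receptors, searched in its consensus letters on both strands, stood in 0 of 26 called genes of the peroxisomal and fatty acid lists and in 0.0549% of tested genes with a window. A match describes letters and not a bound site. List members that were not called were not counted, so the 24.1% describes genes of these lists and not the response to the ASO. At a share as low as 0.0549%, a result of 0 of 26 tells little. The stretches below run 5′ to 3′ on the strand of the gene and end before its start, with the match in capitals. The Cdkn1a stretch lies at chr17:29090861-29090978 (plus strand), Fcgr4 at chr1:171018857-171018925 (plus), Cd72 at chr4:43454627-43454720 (minus), Pirb at chr7:3720450-3720547 (minus), Vav1 at chr17:57279044-57279099 (plus) and Inpp5d at chr1:87620247-87620311 (plus). In Fcgr4 and Cd72 the match is on the opposite strand and is printed as ACTTCCTC.
Cdkn1a: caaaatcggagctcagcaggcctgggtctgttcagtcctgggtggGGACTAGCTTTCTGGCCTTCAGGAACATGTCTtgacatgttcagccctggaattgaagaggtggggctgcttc
Fcgr4: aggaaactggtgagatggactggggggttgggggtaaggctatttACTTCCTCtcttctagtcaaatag
Cd72: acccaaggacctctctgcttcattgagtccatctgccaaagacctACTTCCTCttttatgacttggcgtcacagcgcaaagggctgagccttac
Pirb: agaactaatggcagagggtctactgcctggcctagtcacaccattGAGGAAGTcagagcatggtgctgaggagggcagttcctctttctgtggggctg
Vav1: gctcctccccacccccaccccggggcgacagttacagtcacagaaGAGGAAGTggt
Inpp5d: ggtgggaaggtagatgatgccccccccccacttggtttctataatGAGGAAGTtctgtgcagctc

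The targeted transcript was lower in every treated library. Mdm2 stood at 907, 954, 963 and 956 in the control libraries and 420.4, 362 and 304 in the Mdm2 ASO libraries normalized counts. The 2 groups did not overlap, and the treated mean was 38.3% of the control mean (log2 fold change -1.39, SE 0.11, adjusted p = 1.1e-05 by limma-trend with Benjamini-Hochberg adjustment over all genes tested). The exact two-sided permutation test over the 35 regroupings of the libraries gave p = 0.0571, the smallest value that this design allows where the two-sided p is the doubled one-sided p. Of the 2 genes on either side of Mdm2 in RefSeq order, Cpm (log2 fold change 0.78, adjusted p = 0.00922) and Nup107 (0.98, adjusted p = 0.000813) rose, while Cpsf6 (0.07) and Slc35e3 (0.10) did not pass. Cpm no longer passed under quantile normalization.

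Genes listed here as p53 targets of arrest and repair rose in part. Cdkn1a, the gene of the cyclin-dependent kinase inhibitor p21, stood at 1658, 1551, 1555 and 1686 in the control libraries and 4112, 2225 and 3527 in the Mdm2 ASO libraries. Every treated library was above every control, with library 9 the lowest of the 3 (log2 fold change 0.98, SE 0.18, adjusted p = 0.00256). The p53 target Phlda3, which restrains AKT signalling, went from 253, 126, 180.1 and 182 to 675, 519 and 574, again without overlap (log2 fold change 1.70, SE 0.20, adjusted p = 0.000228). Zmat3, a p53-induced RNA-binding protein gene, had 281, 264, 298 and 282 in controls and 581, 406 and 471 with the Mdm2 ASO, all treated libraries being higher (log2 fold change 0.77, SE 0.12, adjusted p = 0.00124). Ccng1, encoding cyclin G1, rose by 0.62 (adjusted p = 0.000413), Gadd45b by 1.47 (adjusted p = 1.5e-05) and Btg2, an antiproliferative early response gene, by 2.18 (adjusted p = 0.00664), on the log2 scale. In all, 10 of 20 tested p53 targets of arrest and repair rose and 0 fell, with a median log2 fold change of 0.49, against 16.8% of all 17441 genes tested that rose, 13.8% that fell and a median of -0.01. Ddb2 (-0.15), Gadd45a (-0.35) and Rrm2b (0.36) were among those that did not pass. The count was 6 without control replicate 5 and 6 without Mdm2 ASO replicate 9.

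p53 targets of cell death moved both ways: 6 of 17 rose and 5 fell. Dram1, which encodes a lysosomal protein of autophagy, stood at 45.4, 30.3, 34.5 and 67.0 in the control libraries and 523, 574 and 619 in the Mdm2 ASO libraries. The treated libraries lay far above the controls (log2 fold change 3.74, SE 0.24, adjusted p = 4.0e-06). Pmaip1, encoding the BH3 protein NOXA, rose by 2.20 (adjusted p = 6.2e-05), Apaf1, the scaffold of the apoptosome, by 1.07 (adjusted p = 0.000133) and Eda2r, a death receptor gene, by 0.84 (adjusted p = 0.0129). Steap3, a metalloreductase gene, fell by 0.87 (adjusted p = 3.1e-05), and Perp (-0.59) and Bid (-0.44) fell. Bax, a pore former of the outer mitochondrial membrane, did not pass (0.29, adjusted p = 0.0702), though it did without control replicate 1 (adjusted p = 0.0425). Without Mdm2 ASO replicate 9 the fallen members numbered 3.

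Among the regulators of p53, Trp53 itself did not pass (-0.12, adjusted p = 0.534), nor did Mdm4, a partner of MDM2 (0.23, adjusted p = 0.0971, and 0.0291 without Mdm2 ASO replicate 10). Cdkn2a, the locus of p16 and of the MDM2 inhibitor p19ARF, stood at 6.19, 7.86, 2.16 and 14.0 in the control libraries and 207, 212 and 206 in the Mdm2 ASO libraries. Its treated values were close together and all above the highest control (log2 fold change 4.94, SE 0.48, adjusted p = 5.8e-05). Counts per gene cannot separate its products. 3 of the 20 regulators rose and 3 fell, Mdm2 among them, with 5 rising without Mdm2 ASO replicate 10, 6 rising with columns 6 and 7 taken as 2 libraries, and 1 falling with library size scaling. The genes of ASO uptake and RNase H had 3 of 20 up and 3 down, and 6 up and 1 down with library size scaling. In both lists the main counts are 15% each way, near the 16.8% up and 13.8% down over all genes tested. Neither receptor subunit passed: Asgr1 had -0.22 (adjusted p = 0.213) and Asgr2 0.05 (adjusted p = 0.741). Rnaseh1 stood at 0.09, while Tlr9, the sensor of CpG DNA, rose by 2.69 on the log2 scale (adjusted p = 0.000325) from 14.5, 6.74, 19.4 and 16.0 to 94.5, 89.9 and 79.8 normalized counts.

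**Figure D1:**
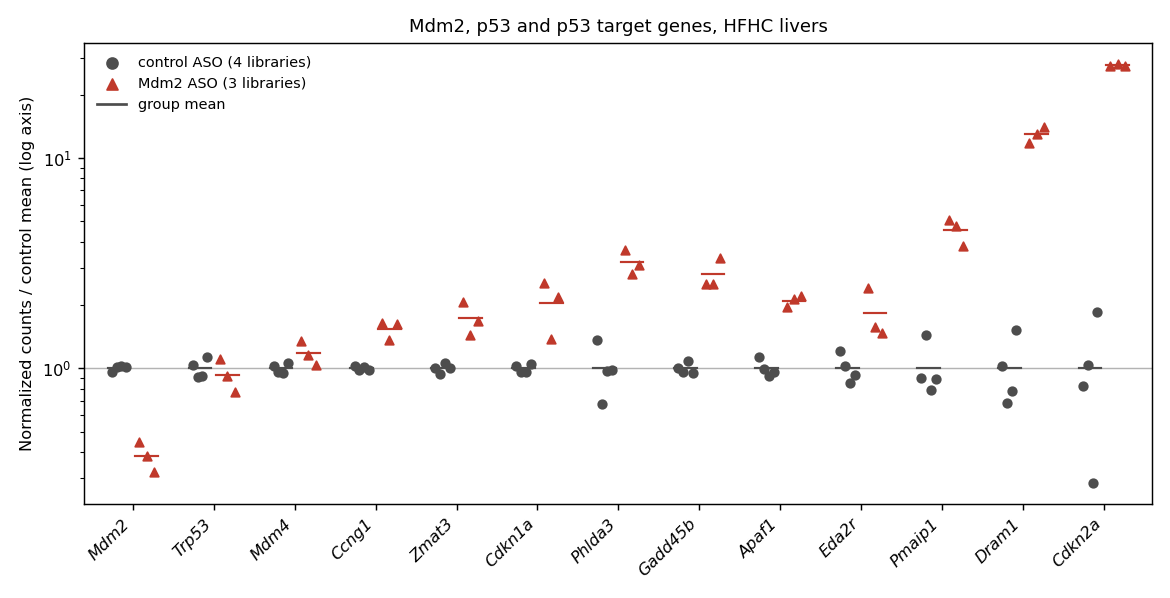
Normalized counts of Mdm2, Trp53, Mdm4, the regulator gene Cdkn2a and p53 target genes in each of the 7 HFHC libraries, divided by the control mean of the same gene (log axis). Circles are the 4 control libraries and triangles the 3 Mdm2 ASO libraries. Mdm2 lies below 1 and Cdkn1a, Phlda3, Zmat3, Ccng1, Dram1 and Cdkn2a above 1 in every treated library, while Trp53 and Mdm4 overlap.

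Across all genes, the groups were far apart. Of 17441 genes tested, 2932 rose (16.8%) and 2399 fell (13.8%), 30.6% together, and 1551 (8.89%) rose and 489 (2.8%) fell by at least 2-fold. Every count given for a gene list is to be read beside the 16.8% and 13.8%. The balance depends on the scaling: with library size scaling 3382 rose and 1460 fell, and with quantile normalization 2482 rose and 3725 fell, settings that moved the median of all genes by 0.103 and -0.105. Without Mdm2 ASO replicate 9, 2132 rose and 1552 fell. Pearson correlations of log2 values were 0.974 to 0.981 between control libraries, 0.974 to 0.981 between Mdm2 ASO libraries and 0.942 to 0.953 across the groups. The first principal component carried 53.4% of the variance and separated the groups, and the next, with 12.7%, set controls 1 and 5 apart from 2 and 4. Albumin, made by hepatocytes, was the most abundant gene in each library, at 4.11 to 4.73% of control reads and 5.66 to 9.59% of treated reads, the highest share being in library 6-7.

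Genes of patrolling (nonclassical) monocytes rose, with a list median log2 fold change of 2.30, and the neutrophil (2.91), red cell (3.11) and platelet (3.29) lists described further on had higher medians. These monocytes clear debris along vessel walls and are known by low Ly6C and by the IgG receptor encoded by Fcgr4. Fcgr4 stood at 165, 189, 181 and 224 in the control libraries and 11368, 11813 and 10495 in the Mdm2 ASO libraries normalized counts. The means were 189.7 ± 24.8 (SD, n = 4) and 11225 ± 671 (SD, n = 3), and no value of one group approached the other (log2 fold change 5.89, SE 0.10, adjusted p = 5.4e-09). Cd300e, an activating receptor of nonclassical monocytes, stood at 28.9, 33.7, 20.5 and 49.0 in the control libraries and 3556, 3875 and 3028 in the Mdm2 ASO libraries (log2 fold change 6.76, SE 0.25, adjusted p = 1.6e-07). Spn, encoding the sialophorin CD43 that marks these cells, stood at 64.0, 32.6, 58.2 and 69.0 in the control libraries and 2456, 2542 and 2424 in the Mdm2 ASO libraries, the treated libraries all being far above the highest control (log2 fold change 5.51, SE 0.23, adjusted p = 2.5e-07). Pou2f2, a transcription factor gene, went from 81.5, 137, 56.1 and 127 to 2372, 2673 and 2074 (log2 fold change 4.64, SE 0.27, adjusted p = 2.4e-06), and Adgre4, an adhesion receptor, from 55.7, 125, 63.6 and 114 to 1348, 1324 and 1169 (log2 fold change 3.91, SE 0.27, adjusted p = 5.3e-06). Klf2 rose by 2.14, Treml4 by 1.95, Ear2 by 2.23 and Itgal by 2.07 on the log2 scale. In all, 13 of 16 list members rose and 0 fell. Cx3cr1, the fractalkine receptor that defines these cells, did not pass, at 245, 92.1, 102 and 156 in the control libraries and 216, 335 and 223 in the Mdm2 ASO libraries (log2 fold change 0.87, SE 0.32, adjusted p = 0.0645), nor did Ace (0.22) and Eno3 (-0.06). Cx3cr1 passed without control replicate 1 (adjusted p = 0.00843). Of the classical monocyte markers 6 of 12 rose (50%) and 2 fell (16.7%), with a median of 0.91. The fallen ones numbered 1 without library 6-7, Mdm2 ASO replicate 9 or any one control. Of the dendritic cell markers 6 of 14 rose (42.9%) and 0 fell, 3 rising without control replicate 4 or Mdm2 ASO replicate 9. Over all genes tested 16.8% rose and 13.8% fell. In such bulk samples, more cells of a type and more RNA per cell cannot be told apart.

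**Figure D2:**
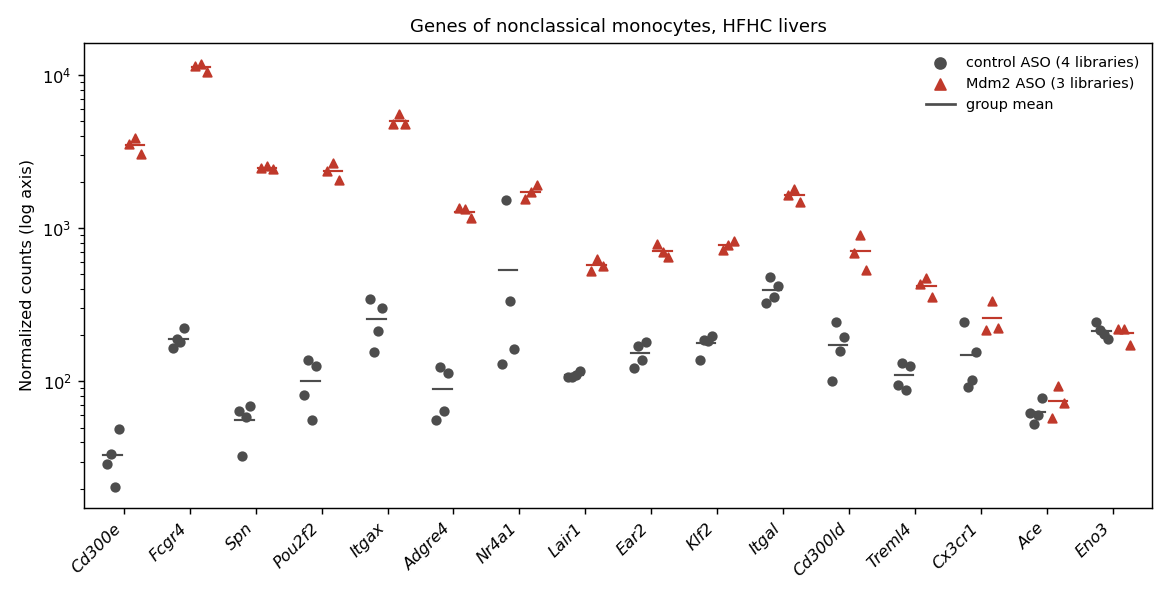
Normalized counts of 16 genes of nonclassical monocytes in each HFHC library, on a log axis, with controls as circles and Mdm2 ASO libraries as triangles. The treated libraries of Cd300e, Fcgr4 and Spn sit together far above the controls, and Cx3cr1, Ace and Eno3 did not pass the test.

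Several of the 10 largest increases among called genes started from few reads in the controls. Fcrl5, an Fc receptor-like gene known from B cells, stood at 6.19, 1.12, 0 and 11.0 in the control libraries and 2481, 2686 and 2533 in the Mdm2 ASO libraries (log2 fold change 9.83, SE 0.90, adjusted p = 3.5e-05). Itgad, which encodes the integrin chain CD11d, stood at 4.13, 1.12, 2.16 and 19.0 in the control libraries and 1083, 1046 and 1146 in the Mdm2 ASO libraries (log2 fold change 7.94, SE 0.69, adjusted p = 2.5e-05), and Htra4, a secreted serine protease gene, at 2.06, 0, 6.47 and 0.999 in the control libraries and 444, 366 and 340.5 in the Mdm2 ASO libraries (log2 fold change 7.64, SE 0.73, adjusted p = 4.8e-05). In these 3 genes all treated libraries were within a narrow range and no control came near. Klra17, the lectin-like receptor Ly49Q, stood at 4.13, 2.25, 0 and 8.99 in the control libraries and 715, 667 and 616 in the Mdm2 ASO libraries (log2 fold change 7.90, SE 0.81, adjusted p = 7.7e-05). Others in this group are not known as leukocyte genes. Scel, encoding sciellin of cornified epithelia, went from 1.03, 0, 1.08 and 5.00 to 297, 386 and 314, and Negr1, a neuronal adhesion protein gene, from 3.1, 1.12, 1.08 and 0 to 225, 274 and 271. The reads of Negr1 were 3, 1, 1 and 0 against 243, 290 and 268, a ratio of 209 with an exact 95% interval of 89.1 to 645 that covers counting error only. Lhx8, a homeobox gene, rose by 6.99 (adjusted p = 8.4e-05) and Ankdd1a by 7.32 (adjusted p = 2.1e-05). Dlx2, another homeobox gene, had 0 reads in every control and 33, 30 and 36 in the treated libraries, at least 43.0-fold higher with 3 counts over the control group as the floor. Btnl4, a butyrophilin-like gene, had 0 control reads and 42, 41 and 41 treated reads, at least 53.9-fold higher by the same floor.

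The machinery by which phagocytes sense and engulf targets rose as a group. Syk, the kinase that Fc receptors use, stood at 320.0, 361, 263 and 366 in the control libraries and 3920, 4016 and 3406 in the Mdm2 ASO libraries (log2 fold change 3.54, SE 0.12, adjusted p = 1.3e-07). Its groups were separated by more than the spread within either. All 22 of 22 kinases and adaptors rose (median 2.55), including the widely expressed kinase gene Csk (0.59), the adaptor gene Tyrobp (2.51), Vav1 (2.79), Btk (2.59) and the phosphatase genes Ptpn6 (2.30) and Inpp5d (2.07). Of the actin regulators, 21 of 22 rose (median 2.20), among them Fmnl1 (3.36), Rac2 (3.20) and Coro1a (2.68). The 6 tested members of the phagocyte NADPH oxidase, which makes superoxide, all rose. Cybb, its catalytic subunit, stood at 533, 522, 470.3 and 672 in the control libraries and 2718, 2672 and 2339 in the Mdm2 ASO libraries (log2 fold change 2.24, SE 0.12, adjusted p = 1.2e-06). Tmsb4x, the actin-binding thymosin beta 4, and Actb, beta actin, were among the 10 called genes with the largest increase in mean level. Tmsb4x went from a mean of 4370 to 14402 (adjusted p = 1.4e-05) and Actb from a mean of 11892 to 21179 (adjusted p = 0.000175).

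Receptors that restrain phagocytes rose as well as those that activate them. Of 21 inhibitory receptors, 17 rose and 0 fell (median 2.38). Pirb, which binds MHC class I, stood at 212, 276, 206 and 295 in the control libraries and 3135, 3390 and 2671 in the Mdm2 ASO libraries (log2 fold change 3.64, SE 0.14, adjusted p = 2.2e-07), and Siglece, a sialic acid receptor of myeloid cells, at 69.2, 155, 48.5 and 171 in the control libraries and 2607, 2789 and 2147 in the Mdm2 ASO libraries (log2 fold change 4.68, SE 0.39, adjusted p = 2.1e-05). No library of either group crossed into the other. Cd300lf rose by 5.32, Cd72 by 4.27, Vsir by 2.78 and Cd274, encoding PD-L1, by 1.85 on the log2 scale, while Lag3, a receptor of T cells (-0.37), did not pass. 15 of 20 Toll-like receptors and partners rose, Tlr8 the most (3.82), and 1 fell, namely Tlr12 (-0.84). Of the C-type lectin receptors 11 of 18 rose, with Clec4a1 at 5.49 and Clec4a3 at 5.24. Spi1, the gene of PU.1, stood at 227, 259, 216 and 265 in the control libraries and 2006, 2283 and 2052 in the Mdm2 ASO libraries, every treated library being higher (log2 fold change 3.13, SE 0.10, adjusted p = 1.0e-07), and 13 of 20 myeloid transcription factors rose with it, Runx1 (3.19) and Ikzf1 (2.65) among them, while Cebpa (-0.46) and Cebpe (-0.99) fell.

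Resident macrophage genes gave a mixed picture. 9 of 16 Kupffer cell markers rose and 1 fell, none falling once library 10 or any control other than replicate 5 was left out. C1qb, a chain of the complement starter C1q, stood at 1320, 1493, 1176 and 1675 in the control libraries and 7031, 7432 and 7112 in the Mdm2 ASO libraries (log2 fold change 2.36, SE 0.11, adjusted p = 6.7e-07), and Spic, the transcription factor of iron-recycling macrophages, at 24.8, 48.3, 28.0 and 42.0 in the control libraries and 384, 549 and 241 in the Mdm2 ASO libraries (log2 fold change 3.41, SE 0.31, adjusted p = 3.5e-05). The groups of both genes were apart. The markers held to be most restricted to resident Kupffer cells did not pass: Clec4f stood at 0.32 (adjusted p = 0.341) and Timd4 at -0.06 (adjusted p = 0.95). Of the lipid-associated macrophage markers, 4 of 14 rose and 5 fell. Gpnmb, a defining gene of these cells, stood at 773, 662, 772 and 843 in the control libraries and 244, 211 and 325 in the Mdm2 ASO libraries, all treated libraries being lower (log2 fold change -1.57, SE 0.15, adjusted p = 3.9e-05), Spp1, osteopontin, fell by 1.53 (adjusted p = 0.0103) and Cd63 (-1.53) (adjusted p = 0.00394), whereas Lgals3 rose by 1.30 and Trem2 (-0.27, adjusted p = 0.252) did not pass.

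Genes of red cells, platelets and neutrophils rose as well. The summed level of the platelet markers was 476, 553, 458 and 575 in the controls and 2425, 1994 and 1567 in the treated libraries, 12 of 13 rising. Gp1ba, the von Willebrand factor receptor of platelets, had 3, 0, 0 and 2 reads against 61, 52 and 31, a ratio of 37.6 (exact 95% interval 15.7 to 117), and Ppbp stood at 12.4, 10.1, 12.9 and 21.0 in the control libraries and 514, 337 and 258 in the Mdm2 ASO libraries (log2 fold change 4.66, SE 0.30, adjusted p = 3.8e-06). The summed red cell markers stood at 1917, 3474, 2696 and 3083 against 16921, 8508 and 7068, with 13 of 14 up. Hbb-b1, adult beta globin, stood at 726, 2027, 1391 and 1701 in the control libraries and 14894, 6239 and 4667 in the Mdm2 ASO libraries, without overlap (log2 fold change 2.47, SE 0.42, adjusted p = 0.00194). With both diets in one fit, 7 of the 8 red cell genes tested on both diets rose. Neutrophil markers summed to 361, 384, 288 and 629 against 4385, 3215 and 3169 (14 of 16 rose), and among them Mpo, made at the precursor stage, stood at 1.03, 1.12, 1.08 and 16.0 in the control libraries and 304, 152 and 236 in the Mdm2 ASO libraries (log2 fold change 6.29, SE 0.79, adjusted p = 0.000293). Gfi1b, a transcription factor of red cell and platelet precursors, had 1, 0, 0 and 1 reads in controls and 63, 42 and 35 in the treated libraries. The part of blood or of blood-forming cells in the phagocyte result was not tested.

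The lymphocyte lists were uneven. 1 of 15 T cell markers rose and 0 fell, Cd8a, a co-receptor of killer T cells, having 0.58 (adjusted p = 0.373), and with one library left out 0 to 2 rose. 5 of 13 natural killer markers rose, and 3 without Mdm2 ASO replicate 9. 7 of 16 B cell markers rose, and 4 without control replicate 4 or without Mdm2 ASO replicate 9. Of the chemokines 6 of 24 rose (25%) and 2 fell (8.33%), against 16.8% and 13.8% of all genes tested. The fallen ones numbered 4 without library 6-7 and 5 with quantile normalization. Cxcl13, the B cell attractant, stood at 1.03, 16.8, 1.08 and 25.0 in the control libraries and 232, 201 and 83.9 in the Mdm2 ASO libraries (log2 fold change 4.79, SE 1.00, adjusted p = 0.00609) and Ccl6 rose by 1.64, while Cxcl9 (0.52) and Cxcl12 (-0.07) did not pass. 8 of 16 interferon-induced GTPases rose, each of them a Gbp or Tgtp gene such as Gbp8 (1.90) and Gbp5 (1.49), and Irgm1 (-0.04) and Iigp1 (0.09) did not pass.

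**Figure D3:**
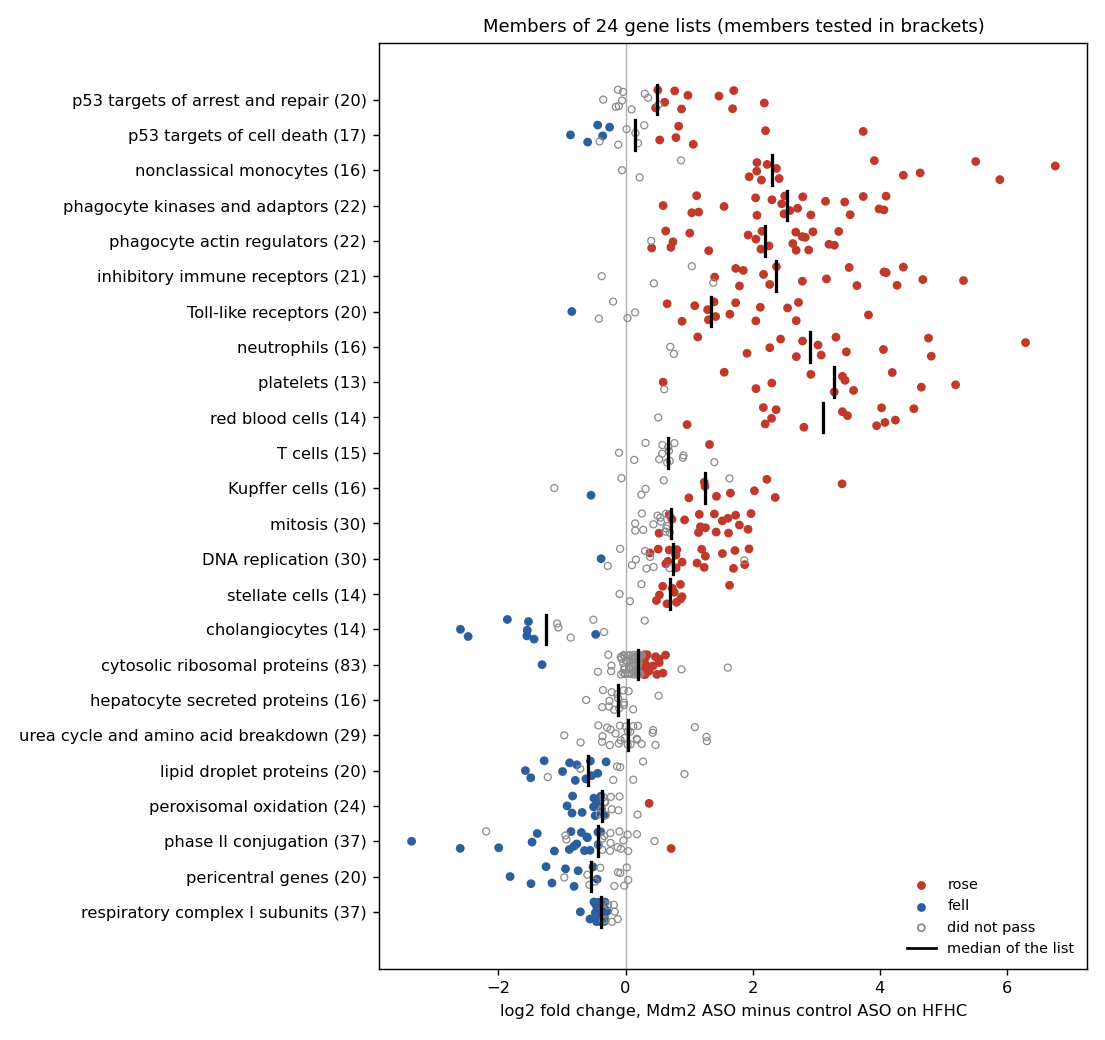
Log2 fold change (Mdm2 ASO minus control ASO on HFHC) of each tested member of 24 gene lists, with the list's median as a bar. Filled points passed at adjusted p under 0.05 and open points did not, and the phagocyte and blood lists lie to the right and the hepatocyte oxidation, complex I and bile duct lists to the left of 0.

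Most DNA replication and mitosis genes rose. Mcm5, a subunit of the replicative helicase, stood at 61.9, 51.6, 43.1 and 44.0 in the control libraries and 161, 199 and 222 in the Mdm2 ASO libraries (log2 fold change 1.94, SE 0.18, adjusted p = 4.4e-05), and Top2a, the topoisomerase of dividing cells, at 110.4, 56.1, 80.9 and 80.9 in the control libraries and 329, 242 and 269 in the Mdm2 ASO libraries (log2 fold change 1.79, SE 0.22, adjusted p = 0.000227). In both genes every treated library was above the controls. 19 of 30 replication genes rose and 1 fell, and 17 of 30 mitosis genes rose and 0 fell. Mki67 rose by 1.62 (adjusted p = 1.0e-04), Aurkb by 1.73 and Bub1 by 1.97 on the log2 scale, while Cdc20 (0.28, adjusted p = 0.448) and Cenpf (0.15) did not pass. Without library 6-7 the mitosis count was 11, and with quantile normalization the replication count was 12. Most genes of the blood and phagocyte lists above rose too, and the part of those cells in the replication and mitosis genes was not tested.

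Transcripts of the mitochondrial genome were lower. ND5, a complex I subunit gene, stood at 107959, 104479, 115767 and 110834 in the control libraries and 51888, 59720 and 49163 in the Mdm2 ASO libraries (log2 fold change -1.04, SE 0.19, adjusted p = 0.00274), and ND4 at 95518, 95112, 118795 and 92392 in the control libraries and 43777, 54603 and 51432 in the Mdm2 ASO libraries (log2 fold change -1.01, SE 0.19, adjusted p = 0.00396). The highest treated value was below the lowest control in both. Reads of mitochondrial genes made up 6.08 to 7.55% of control reads and 3.66 to 4.43% of treated reads. 10 of 13 tested transcripts fell and 0 rose (median -0.94). COX1 (-0.84, adjusted p = 0.164) and ND1 (-0.62, adjusted p = 0.0686) did not pass although their groups were apart, and by edgeR on the recovered reads their adjusted p was 0.00463 and 0.00734. COX2, COX3, ATP6 and ND3 had far fewer reads than the other mitochondrial transcripts, which makes their values uncertain where nuclear copies share reads.

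Nuclear genes of complex I, which opens the respiratory chain, fell with them, with a median nearer 0. Of 37 nuclear complex I subunits, 29 fell and 0 rose (median -0.39), with values between -0.71 and -0.12. Ndufa1, an accessory subunit, stood at 1470, 1485, 1548 and 1524 in the control libraries and 860.3, 951 and 953 in the Mdm2 ASO libraries, all treated libraries being lower (log2 fold change -0.71, SE 0.07, adjusted p = 5.4e-05), and Ndufa4 fell by 0.50 (adjusted p = 0.00697). The count was sensitive to single libraries: 14 without Mdm2 ASO replicate 9, 18 without control replicate 2 or 4, 19 without library 6-7, and 18 with library size scaling. Mitochondrial ribosomal proteins fell in 31 of 77 cases and rose in 0 (median -0.23), 19 falling without Mdm2 ASO replicate 9, 16 with library size scaling and 49 with quantile normalization. Opa1, which fuses inner mitochondrial membranes, stood at 1217, 1393, 1336 and 1307 in the control libraries and 402, 542 and 502 in the Mdm2 ASO libraries, the groups being apart (log2 fold change -1.45, SE 0.11, adjusted p = 8.3e-06), and 9 of 23 genes of mitochondrial dynamics fell, 4 without Mdm2 ASO replicate 9, 5 without control replicate 2 or 4, and 3 with library size scaling. Chchd3 (-0.47) was among those that fell and Dnm1l (0.01), the fission GTPase, did not pass.

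Lipid storage and oxidation genes of hepatocytes were lower in part. Lipid droplets are coated by perilipins and CIDE proteins, and fatty acids are shortened in mitochondria and, when very long or branched, in peroxisomes. 12 of 20 droplet genes fell and 0 rose (median -0.59). Plin4, a perilipin, stood at 7356, 6147, 5496 and 6441 in the control libraries and 2585, 3438 and 3630 in the Mdm2 ASO libraries (log2 fold change -0.99, SE 0.14, adjusted p = 0.000541), and Hsd17b13, a droplet enzyme of hepatocytes, at 9479, 15264, 11682 and 10700 in the control libraries and 5998, 5829 and 7159 in the Mdm2 ASO libraries (log2 fold change -0.88, SE 0.16, adjusted p = 0.00262). Both had every treated library below the controls. Mogat1, a monoacylglycerol acyltransferase gene, fell by 1.49 and Plin5 (-0.79) on the log2 scale, while the lipase gene Pnpla2 (-0.13) and the triglyceride synthesis genes Dgat1 (0.28) and Dgat2 (-0.19) did not pass. 12 of 24 peroxisomal genes fell and 1 rose (median -0.38). Acaa1b, the peroxisomal thiolase, stood at 54196, 66375, 57820 and 53008 in the control libraries and 23491, 32455 and 37093 in the Mdm2 ASO libraries (log2 fold change -0.92, SE 0.19, adjusted p = 0.00575). Its decrease in mean level was one of the 10 largest among called genes. Hsd17b4 fell by 0.68 and Pex11a (-0.83). Of the acyl-CoA thioesterases and omega oxidation genes, 6 of 18 fell and 0 rose. Acot2 stood at 777, 567, 551 and 692 in the control libraries and 263, 285 and 214 in the Mdm2 ASO libraries, without overlap (log2 fold change -1.34, SE 0.14, adjusted p = 0.000111), and Cyp4a14 (0.24), a textbook PPAR-alpha target, did not pass.

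Detoxifying enzymes were lower in part. 18 of 37 phase II genes fell and 1 rose (median -0.43). Gstm1, a glutathione transferase, stood at 35849, 40711, 43805 and 33908 in the control libraries and 15420, 22524 and 25906 in the Mdm2 ASO libraries (log2 fold change -0.88, SE 0.19, adjusted p = 0.0073), and Gsta1 at 146, 273, 288 and 209 in the control libraries and 12.0, 54.9 and 69.7 in the Mdm2 ASO libraries (log2 fold change -2.60, SE 0.53, adjusted p = 0.00503). Each had its treated libraries below its controls, though such close paralogs can share reads. 11 of 20 targets of the oxidative stress factor NRF2 fell and 4 rose. Nqo1 fell by 0.74 (adjusted p = 0.0101), Srxn1 (-0.88) and Gclc (-0.51), on the log2 scale. Hmox1, heme oxygenase, moved the other way at 597, 779, 721 and 804 in the control libraries and 3449, 4846 and 3148 in the Mdm2 ASO libraries (log2 fold change 2.38, SE 0.15, adjusted p = 3.9e-06), as did G6pdx (2.01). 9 of 36 xenobiotic cytochrome P450 genes fell and 2 rose, with 2 falling without Mdm2 ASO replicate 9, 3 without control replicate 4, 4 without library 6-7 and 5 without control replicate 2. Cyp2e1 (-0.18) and Cyp2c29 (0.24) did not pass, while Cyp2d9 fell by 1.27 (adjusted p = 0.008).

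Genes of the zone around the central vein, which Wnt signals maintain, were lower in part. Glul, glutamine synthetase, stood at 39501, 36320, 41583 and 37442 in the control libraries and 12964, 19318 and 20810 in the Mdm2 ASO libraries, every treated library being lower (log2 fold change -1.16, SE 0.17, adjusted p = 0.000956). Axin2, a direct target of Wnt signalling, stood at 307, 292, 329 and 433 in the control libraries and 218, 131 and 59.6 in the Mdm2 ASO libraries (log2 fold change -1.49, SE 0.36, adjusted p = 0.012), and Rhbg, an ammonium transporter gene, fell by 1.82 (adjusted p = 0.00764). 9 of 20 pericentral genes fell and 0 rose (median -0.54), while Lgr5 (0.04) and Cyp2e1 did not pass. Of the periportal genes, 4 of 16 fell and 1 rose, Cdh1, E-cadherin, falling (-1.03) (adjusted p = 0.0158), and 2 fell without Mdm2 ASO replicate 9 while 2 rose without library 6-7.

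Secreted hepatocyte proteins and amino acid breakdown gave no calls. 0 of 16 secreted protein genes rose and 0 fell by limma-trend. Of these, 1 had an unadjusted p under 0.05, and edgeR called 1 and DESeq2 4 on the recovered reads. Alb had 0.52 (adjusted p = 0.622), Ttr -0.26 and Trf -0.12. 0 of 29 urea cycle and amino acid genes rose and 0 fell by limma-trend, Cps1 standing at 0.47 (adjusted p = 0.222) and Otc at -0.23. Of these, 6 had an unadjusted p under 0.05, edgeR called 2 and DESeq2 3. In glucose metabolism 5 of 28 rose and 9 fell. Pklr, the pyruvate kinase of hepatocytes, fell by 0.81 on the log2 scale (adjusted p = 0.00507). Pkm, the pyruvate kinase of non-hepatocyte and dividing cells, stood at 729.8, 658, 602 and 733 in the control libraries and 3691, 3517 and 3435 in the Mdm2 ASO libraries (log2 fold change 2.39, SE 0.09, adjusted p = 1.6e-07). With both diets in one fit, 3 members fell. Of the hepatocyte transcription factors 8 of 24 fell, Foxa1 (-1.03) among them, and 5 without control replicate 4 or with library size scaling, while Hnf4a (-0.22) and Nr1h4, the bile acid receptor FXR (-0.18), did not pass.

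Bile duct genes fell. Krt23, a keratin of injured and ductular epithelium, stood at 113, 143, 89.5 and 111 in the control libraries and 13.9, 23.6 and 18.2 in the Mdm2 ASO libraries (log2 fold change -2.60, SE 0.24, adjusted p = 3.6e-05), and Sox9, the duct transcription factor, at 343, 175, 187 and 243 in the control libraries and 139, 67.2 and 50.5 in the Mdm2 ASO libraries (log2 fold change -1.55, SE 0.34, adjusted p = 0.00775). Every treated library was below every control in both. 8 of 14 duct markers fell and 0 rose (median -1.26), while Epcam (-1.08, adjusted p = 0.0841, and 0.0313 without control replicate 2) did not pass. Stellate cell markers went the other way: 11 of 14 rose and 0 fell, 7 rising without library 6-7 and 6 without Mdm2 ASO replicate 9. Lrat, the retinol-storing enzyme of these cells, stood at 462, 357, 282 and 414 in the control libraries and 658, 733 and 648 in the Mdm2 ASO libraries, without overlap (log2 fold change 0.86, SE 0.15, adjusted p = 0.00251). In a separate list of activated stellate cells and myofibroblasts 2 of 14 rose (14.3%) and 3 fell (21.4%), with a median of 0.03. Over all genes tested 16.8% rose and 13.8% fell. The fallen members of that list numbered 1 without library 6-7 or without Mdm2 ASO replicate 9. Of the sinusoidal endothelial markers 11 of 16 rose, Lyve1 by 0.93 and Ehd3 by 1.12, and 7 rose with both diets in one fit.

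Collagen and matrix protease genes had medians below 0 (-0.46 and -0.77), and a minority of each list passed. 1 of 21 collagen genes rose and 5 fell, 3 falling without control replicate 1, control replicate 5 or library 6-7 and 3 with library size scaling. The main fibrillar genes did not pass: Col1a1 stood at 1754, 531, 882 and 1177 in the control libraries and 379.7, 699 and 642 in the Mdm2 ASO libraries (log2 fold change -0.84, SE 0.36, adjusted p = 0.11), with the groups overlapping, though it passed without control replicate 2 (adjusted p = 0.019), and Col3a1 had -0.66 (adjusted p = 0.137). Col5a3 fell by 0.71 and Col14a1 rose by 0.96. 9 of 25 matrix proteases and inhibitors fell and 2 rose, 4 rising without control replicate 1 and 14 falling with quantile normalization. Mmp13, a collagenase gene, stood at 37.2, 43.8, 57.2 and 16.0 in the control libraries and 0.926, 2.84 and 3.03 in the Mdm2 ASO libraries (log2 fold change -3.79, SE 0.51, adjusted p = 0.000451), and Timp1, its inhibitor, at 152, 66.2, 86.3 and 123 in the control libraries and 27.8, 50.1 and 36.4 in the Mdm2 ASO libraries (log2 fold change -1.44, SE 0.31, adjusted p = 0.00651). All treated libraries of both genes were lower. Of the TGF-beta pathway 11 of 28 genes rose and 4 fell. Tgfbr2, a receptor of the pathway, rose by 0.91, while Inhbe, a hepatocyte activin chain, fell by 1.95 on the log2 scale. The risen members numbered 6 without Mdm2 ASO replicate 9, 7 without control replicate 4 and 7 with quantile normalization.

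Ribosome and proteasome genes moved in opposite directions by small amounts. 31 of 83 cytosolic ribosomal protein genes rose and 1 fell (median 0.20). Rpl3 stood at 3409, 3595, 2911 and 3498 in the control libraries and 5132, 5042 and 5346 in the Mdm2 ASO libraries, without overlap (log2 fold change 0.63, SE 0.09, adjusted p = 0.000624), and Rps4x rose by 0.53. The count was 15 without control replicate 4 or Mdm2 ASO replicate 9, 18 without control replicate 5 and 20 without library 6-7. 15 of 38 proteasome subunits fell and 3 rose (median -0.21). Psmb5, a catalytic subunit of the standard proteasome, stood at 2367, 2111, 2342 and 1974 in the control libraries and 1110, 1346 and 1697 in the Mdm2 ASO libraries (log2 fold change -0.68, SE 0.13, adjusted p = 0.00436), while the risen members were the immunoproteasome subunits Psmb8 (0.61), Psmb9 (0.43) and Psmb10 (0.58), which interferon induces. Psmb9 had overlapping groups, and its adjusted p was 0.0826 without control replicate 2, 0.0891 without control replicate 5, 0.147 without Mdm2 ASO replicate 9 and 0.0903 without Mdm2 ASO replicate 10. The fallen members numbered 7 without Mdm2 ASO replicate 9, 8 with library size scaling and 23 with columns 6 and 7 taken as 2 libraries.

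Stress, iron and plasma protein genes were divided. Fgf21, a hepatic stress hormone, stood at 812, 515, 755 and 608 in the control libraries and 293, 143 and 104 in the Mdm2 ASO libraries (log2 fold change -2.02, SE 0.31, adjusted p = 0.00102), and Hspb1, a small heat shock protein gene, at 1380, 982, 1374 and 1348 in the control libraries and 225, 323 and 424 in the Mdm2 ASO libraries (log2 fold change -2.0, SE 0.20, adjusted p = 7.0e-05). Both were lower in every treated library. 10 of 27 endoplasmic reticulum stress genes fell and 3 rose, 4 falling without Mdm2 ASO replicate 9, 5 without control replicate 2 or 4 and 6 without control replicate 5, with Atf4 (-0.12) and Xbp1 (0.04) not passing. Of the acute phase genes 7 of 23 rose and 6 fell. Saa2, a serum amyloid gene, stood at 4972, 3628, 3278 and 3442 in the control libraries and 835, 1367 and 2082 in the Mdm2 ASO libraries, the treated libraries being lower (log2 fold change -1.50, SE 0.27, adjusted p = 0.00252), whereas Serpina3n stood at 10577, 10792, 10487 and 11826 in the control libraries and 24152, 15734 and 21291 in the Mdm2 ASO libraries and was higher in each (log2 fold change 0.88, SE 0.15, adjusted p = 0.00169). Of the complement genes 5 of 23 rose and 5 fell (21.7% each), 2 falling without Mdm2 ASO replicate 9. Of the iron genes 6 of 24 rose and 6 fell (25% each), 3 falling with library size scaling. Over all genes tested 16.8% rose and 13.8% fell. Hjv, a co-receptor that drives hepcidin, fell by 1.15 (adjusted p = 1.3e-05), and hepcidin itself, Hamp, had -1.47 without passing (adjusted p = 0.449). Slc11a1, an iron transporter of macrophage phagosomes, rose by 3.14 (adjusted p = 1.3e-07).

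Clock genes were spread out among the treated libraries. The median SD of log2 values over the clock genes was 0.665 among treated and 0.174 among control libraries, against 0.205 and 0.191 over all genes tested. Nr1d1, a repressor of the clock, stood at 2949, 3252, 2893 and 2266 in the control libraries and 1733, 1192 and 605 in the Mdm2 ASO libraries (log2 fold change -1.39, SE 0.29, adjusted p = 0.00639). Of 21 clock genes 2 rose (9.52%) and 1 fell (4.76%), against 16.8% and 13.8% of all genes tested. These counts rested on single libraries: without library 6-7, 10 rose and 3 fell, without Mdm2 ASO replicate 9 none rose, without Mdm2 ASO replicate 10 there were 1 and 2, and without any one control 1 rose. With library size scaling 5 rose. Igfbp1, a fasting-responsive binding protein gene, stood at 1826, 3279, 2324 and 2423 in the control libraries and 3481, 8985 and 15815 in the Mdm2 ASO libraries (log2 fold change 1.71, SE 0.42, adjusted p = 0.0131). Its library 6-7 was well under libraries 9 and 10, and it did not pass without Mdm2 ASO replicate 9 (adjusted p = 0.0555). Sampling time is not given in the sources used here, and its part was not tested. Mup20, a male pheromone protein, stood at 124155, 67050, 68224 and 93132 in the control libraries and 23763, 31659 and 26908 in the Mdm2 ASO libraries (log2 fold change -1.65, SE 0.24, adjusted p = 0.000872), and of 20 major urinary protein genes 5 rose and 1 fell, though near-identical copies share reads. The risen ones numbered 2 without control replicate 4, control replicate 5 or Mdm2 ASO replicate 10. 5 of 21 male-biased genes rose and 5 fell, among them Slco1a1 (3.37) and Cyp2d9, and 0 of 18 female-biased genes rose and 1 fell.

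**Figure D4:**
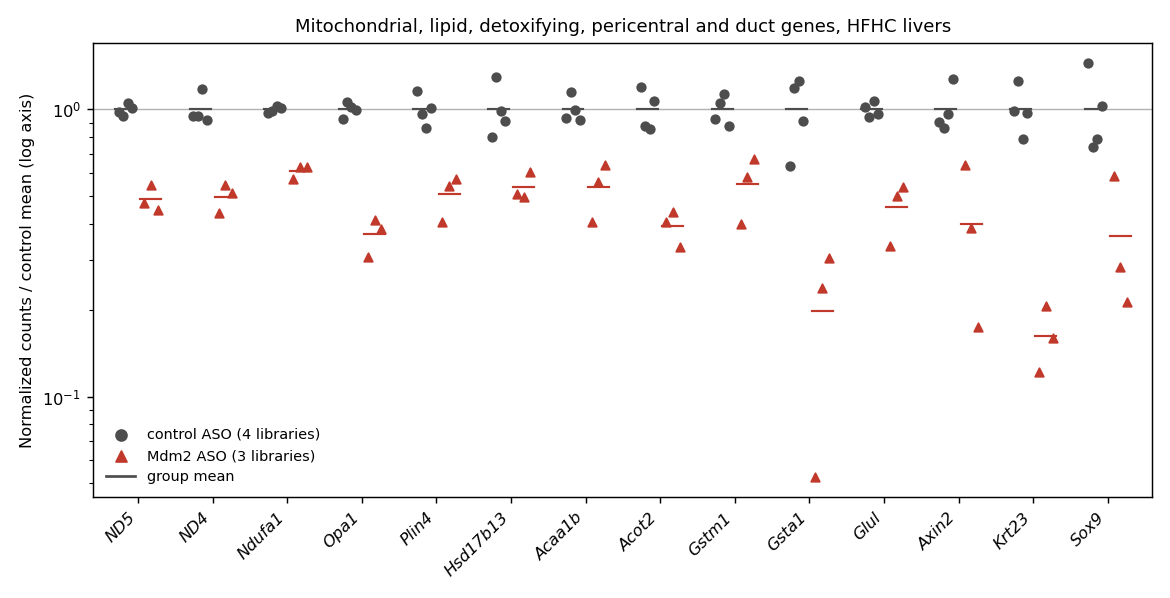
Normalized counts of 14 mitochondrial, lipid, detoxifying, pericentral and duct genes in each HFHC library, divided by the control mean (log axis), with controls as circles and Mdm2 ASO libraries as triangles. Every treated library of ND5, ND4, Acaa1b, Glul and Krt23 lies below the controls.

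The largest decreases among called genes with a mean of at least 50 were in genes of varied function. Ephb2, a receptor tyrosine kinase gene, stood at 659.6, 313, 462 and 529.7 in the control libraries and 12.0, 31.2 and 23.2 in the Mdm2 ASO libraries (log2 fold change -4.49, SE 0.33, adjusted p = 8.4e-06). Cyp21a1, encoding steroid 21-hydroxylase, stood at 262, 21.3, 45.3 and 82.9 in the control libraries and 0.926, 1.89 and 14.1 in the Mdm2 ASO libraries (log2 fold change -4.22, SE 0.93, adjusted p = 0.0079), and Aqp7, a glycerol channel gene, at 179, 38.2, 64.7 and 124 in the control libraries and 3.7, 13.2 and 4.04 in the Mdm2 ASO libraries (log2 fold change -3.76, SE 0.58, adjusted p = 0.00109). In these 3 genes no treated value reached the lowest control. Sprr1a, a gene of the cornified envelope, fell by 3.82, Fam83a (-2.93), Adgrv1 (-3.37) and Insyn1 (-3.90) on the log2 scale. The predicted gene Gm35546 had 103, 70, 78 and 100 control reads against 0, 2 and 2, a ratio of 0.0149 (exact 95% interval 0.00403 to 0.0384). Of the 10 called genes with the largest decrease in mean level, Mup20, ND5, ND4, Acaa1b and Glul passed under every alternative that was run, while the other 5 did not. Of those, Apoa4, an apolipoprotein of triglyceride-rich particles, stood at 169486, 85289, 111664 and 131338 in the control libraries and 45515, 58156 and 68200 in the Mdm2 ASO libraries (log2 fold change -1.09, SE 0.28, adjusted p = 0.0153, and adjusted p = 0.0556 without Mdm2 ASO replicate 9). Fabp1, the fatty acid carrier of hepatocytes, had -0.71 (adjusted p = 0.0122, and 0.0526 with quantile normalization).

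The same ASO was also given on CDAHFD, a second diet of the series, with 5 control and 5 Mdm2 ASO libraries in a table normalized separately. There 2181 of 16803 genes passed (13%), 6.12% rising and 6.86% falling. The difference between the effects was tested as an interaction: 2226 of 16333 genes had a higher log2 fold change on HFHC (13.6%) and 1606 a lower one (9.83%). With quantile normalization these were 1961 and 2440. The fall of Mdm2 did not differ beyond the error, with -1.39 on HFHC and -1.29 on CDAHFD (difference -0.10, adjusted p = 0.705). The change of Cdkn1a, upward on both diets, did not differ either (0.98 on HFHC and 0.78 on CDAHFD, adjusted p = 0.647).

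The phagocyte response differed between the diets. All 22 of 22 kinases and adaptors had a higher fold change on HFHC, while on CDAHFD 0 rose and 1 fell. Fcgr4 had 0.66 on CDAHFD (difference 5.23, adjusted p = 1.5e-05), and Lyn, the difference with the smallest p among higher genes, had 2.46 on HFHC and -0.19 on CDAHFD (difference 2.64, adjusted p = 5.0e-08). Of the mitosis genes 28 of 30 had a higher fold change on HFHC, with 15 falling on CDAHFD. Top2a had -0.91 there (difference 2.70, adjusted p = 0.000169).

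Complex I and pericentral genes differed the other way. 34 of 37 complex I subunits had a lower fold change on HFHC, and 16 rose on CDAHFD. Ndufa1 had -0.00033 there (difference -0.71, adjusted p = 0.000201). 13 of 20 pericentral genes had a lower fold change on HFHC. Notum, a secreted inhibitor of Wnt, had -0.81 on HFHC and 0.65 on CDAHFD (difference -1.46, adjusted p = 1.0e-05), and Lars2, the mitochondrial leucyl-tRNA synthetase, had -1.77 and 0.34 (difference -2.11, adjusted p = 9.9e-06). For lipid droplet genes 3 of 20 had a lower (15%) and 1 a higher (5%) fold change on HFHC, against 9.83% and 13.6% of all genes tested on both diets.

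**Figure D5:**
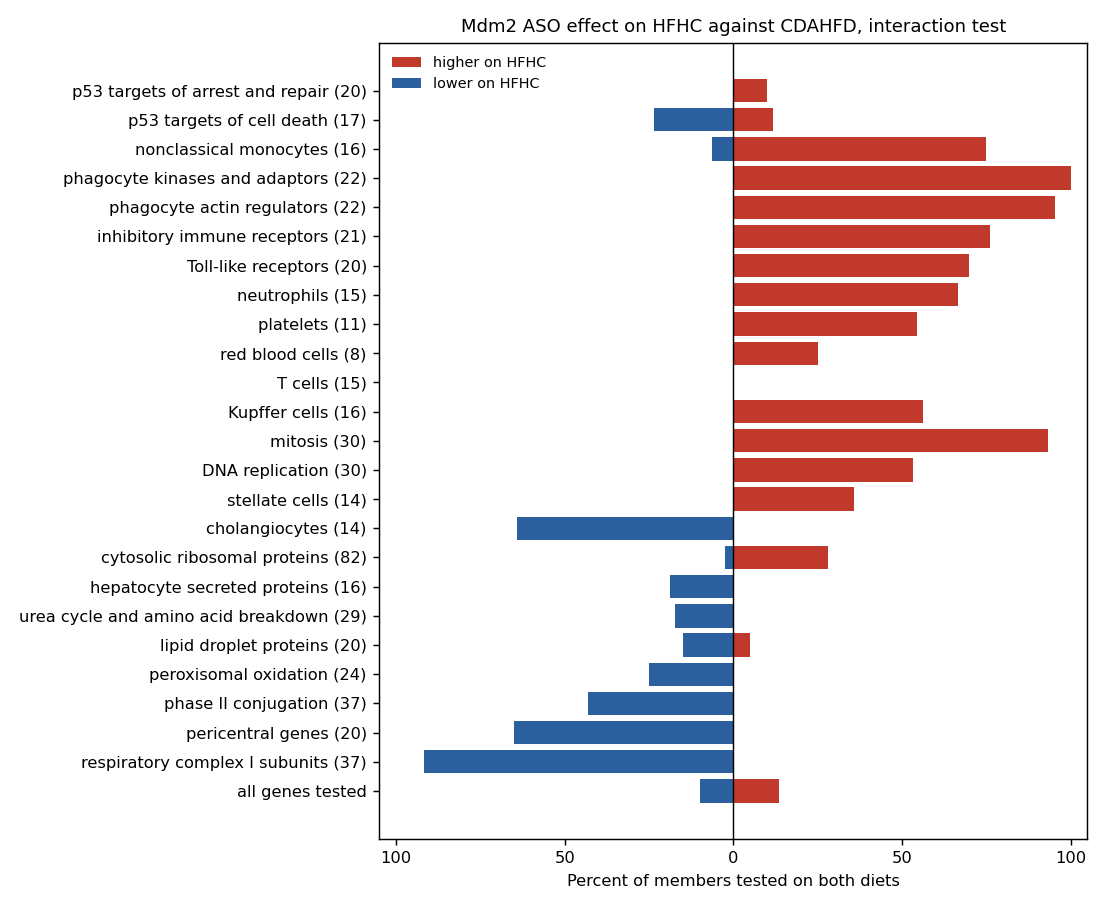
Percent of tested members of each of 24 gene lists whose log2 fold change on HFHC was higher (right) or lower (left) than on CDAHFD at adjusted p under 0.05 by the interaction test, with all genes tested in the bottom row (13.6% higher and 9.83% lower). The phagocyte and mitosis bars reach furthest right and the complex I bar furthest left.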

How the data were processed

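Liver RNA was extracted with a column kit and sequenced as strand-specific mRNA libraries, per the labels' protocols. The submitters' processing notes name the build GRCm39, the aligner STAR (2.7.10b) and featureCounts from Subread (2.0.3) for counting reads per gene, and the strand setting of the counting is not given in the sources used here. What the authors deposited, per the labels, are counts after TMM normalization, used here as a signal comparable within one diet's table. Each value was a whole number times one constant per library (100% of values within 0.001), so reads could be recovered. The HFHC and CDAHFD tables were normalized separately. Depth was 17770748 to 18798144 reads per HFHC library.

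The filter kept genes that reached 1 in 3 or more libraries, and these were tested with limma-trend on log2(value + 0.5), two-sided, with Benjamini-Hochberg adjustment over all of them and a call at adjusted p under 0.05. A fold change on this scale is a difference of mean log2 values: the pseudocount shrinks the change of low genes, while uneven low values can make it larger than the ratio of the group means, as for Fcrl5. "Rose" and "fell" are used for called genes. The diet difference was an interaction contrast over genes that passed in both tables. Gene lists (73, with 1485 genes in the table and 7 not in it) were described by counts and medians, with no set test. The comparison, the lists and their members were chosen with earlier results of these data known. Genes named are Mdm2 and its circuit, the neighbours of Mdm2 and the diet differences of smallest p. Among called genes they include the 10 largest and smallest fold changes (mean at least 50 in the higher group, no overlap). The 10 largest changes in mean in each direction were also taken among called genes. From each list up to 4 called members in each direction were taken by smallest p. Genes with at most 3 reads in each library of one group and at least 30 in each of the other were named too. List members given as not passing, and some called members past the first 4 of a list, were chosen after their values were seen. Some genes that the rule names are not reported here. Alternatives were other pseudocounts and filters, quantile and library size scaling, edgeR and DESeq2 on recovered reads, identical columns as 2 libraries, both diets in one fit, and each library left out. Counting intervals are exact 95% intervals. On simulated data limma-trend found 87% of genes changed 2-fold and 99% of those changed 4-fold, and 13 of its 199 calls fell on genes left as they were (17055 genes in that fit). The changed genes there were few, evenly up and down, and all had a mean of at least 50 reads. These shares therefore do not give the power or error of the comparison itself, least of all for genes with few reads. The promoter table is RefSeq's, on GRCm38.p6. Tools were limma 3.58.1, DESeq2 1.42.0 and edgeR 4.0.16, run under R 4.3.3.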

Additional observations from a re-analysis of the deposited data

Results flagged for a closer look

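Of 207 genes named in the text and tested on both diets, 130 had a log2 fold change on HFHC that differed from that on CDAHFD by the interaction test of limma-trend at adjusted p under 0.05, 81 of them higher and 49 lower on HFHC. Over all 16333 genes tested on both diets the share was 23.5%, and the named genes were chosen in part for large changes on HFHC or for small p of this difference. The values below are the HFHC minus CDAHFD differences on the log2 scale.

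Among p53 genes, the fold change on HFHC was higher by a difference of 4.38 for Cdkn2a, 3.84 for Dram1, 2.38 for Pmaip1 and 1.95 for Gadd45b. Among p53 genes, the fold change on HFHC was lower by a difference of -0.41 for Perp. Among receptor, kinase, actin, chemokine, interferon and antigen presentation genes, the fold change on HFHC was higher by a difference of 5.40 for Clec4a1, 5.21 for Fcrl5, 5.20 for Clec4a3, 5.03 for Cd300lf, 4.92 for Itgad, 4.46 for Tlr8, 4.13 for Siglece, 3.89 for Cd72, 3.86 for Pirb, 3.66 for Syk, 3.44 for Spi1, 3.40 for Runx1, 3.35 for Rac2, 3.15 for Ikzf1, 3.10 for Fmnl1, 2.98 for Vsir, 2.90 for Btk, 2.88 for Cybb, 2.84 for Vav1, 2.82 for Tyrobp, 2.76 for Coro1a, 2.64 for Lyn, 2.41 for Cd274, 2.41 for Ccl6, 2.35 for Ptpn6, 2.29 for Gbp8, 2.10 for Inpp5d, 1.46 for Gbp5, 1.39 for Cxcl9, 0.75 for Psmb8, 0.50 for Csk and 0.47 for Psmb10. Among receptor, kinase, actin, chemokine, interferon and antigen presentation genes, the fold change on HFHC was lower by a difference of -1.94 for Cebpe and -0.47 for Cebpa. Among cell type markers, the fold change on HFHC was higher by a difference of 6.29 for Mpo, 5.34 for Spn, 5.23 for Fcgr4, 5.22 for Cd300e, 4.24 for Ppbp, 4.07 for Pou2f2, 4.04 for Spic, 3.92 for Adgre4, 3.78 for Gp1ba, 3.32 for Ear2, 2.71 for C1qb, 2.60 for Treml4, 2.36 for Itgal, 2.23 for Klf2, 2.00 for Lgals3 and 0.76 for Lrat. Among cell type markers, the fold change on HFHC was lower by a difference of -3.17 for Krt23, -2.13 for Epcam, -2.12 for Spp1, -1.40 for Timp1, -1.12 for Sox9 and -0.68 for Eno3. Among replication and mitosis genes, the fold change on HFHC was higher by a difference of 3.17 for Aurkb, 3.03 for Bub1, 2.85 for Mki67, 2.70 for Top2a, 2.40 for Cdc20 and 2.09 for Mcm5. Among mitochondrial, lipid, glucose, zonation, detoxifying, ribosome and proteasome genes, the fold change on HFHC was higher by a difference of 3.14 for Hmox1, 2.69 for Pkm, 2.51 for G6pdx, 0.83 for Rpl3 and 0.72 for Rps4x. Among mitochondrial, lipid, glucose, zonation, detoxifying, ribosome and proteasome genes, the fold change on HFHC was lower by a difference of -2.04 for Rhbg, -2.0 for Gsta1, -1.54 for Mogat1, -1.46 for Notum, -1.37 for Cyp2d9, -1.26 for Axin2, -1.15 for ND4, -1.10 for Glul, -1.05 for Acaa1b, -0.98 for ND1, -0.94 for Psmb5, -0.89 for Gstm1, -0.82 for Foxa1, -0.73 for Gclc, -0.71 for Ndufa1, -0.66 for Ndufa4, -0.52 for Srxn1 and -0.52 for Nr1h4. Among matrix, plasma protein, stress, iron, endocrine and uptake genes, the fold change on HFHC was higher by a difference of 3.65 for Slc11a1, 3.51 for Tlr9, 2.27 for Slco1a1, 1.52 for Igfbp1, 1.16 for Tgfbr2 and 1.03 for Col14a1. Among matrix, plasma protein, stress, iron, endocrine and uptake genes, the fold change on HFHC was lower by a difference of -1.81 for Inhbe, -1.78 for Mup20, -1.66 for Saa2, -1.55 for Hspb1, -1.36 for Fgf21, -0.92 for Hjv, -0.79 for Col5a3 and -0.49 for Asgr1. Among genes of no list, the fold change on HFHC was higher by a difference of 7.35 for Ankdd1a, 7.31 for Negr1, 6.90 for Htra4, 5.81 for Klra17, 5.54 for Scel, 4.57 for Pycard, 4.45 for Lipg, 3.93 for Pld4, 2.74 for Abcg1, 1.81 for Tmsb4x, 1.16 for Actb and 0.77 for Nup107. Among genes of no list, the fold change on HFHC was lower by a difference of -4.10 for Cyp21a1, -3.84 for Gm35546, -2.66 for Ephb2, -2.62 for Adgrv1, -2.55 for Aqp7, -2.11 for Lars2, -1.89 for Fam83a, -1.38 for Ly6d, -1.14 for Krt8, -0.99 for Aqp8, -0.98 for Krt18, -0.87 for Fabp1, -0.51 for Slc35e3 and -0.39 for Sqstm1.

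In 11 of 211 genes, 1 of the 4 control libraries lay apart from the other 3 by Dixon's criterion at 95%, and chance flags about 1 in 20 groups. In control replicate 1 this held for Aurkb (49.5), Cyp4a14 (17779) and Mdm2 (907), given as normalized counts. In control replicate 2 this held for Btg2 (2812), Hspb1 (982), Pmaip1 (73.0) and Rhbg (69.6), given as normalized counts. In control replicate 4 this held for Irgm1 (1281) and ND4 (118795), given as normalized counts. In control replicate 5 this held for Itgad (19.0) and Mpo (16.0), given as normalized counts.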

How the results depend on the processing

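No paired analysis was possible because the control (1, 2, 4 and 5) and Mdm2 ASO (6, 7, 9 and 10) samples on HFHC share no replicate number. The fall of Mdm2 kept its direction and its call under all 17 alternatives that were run, with log2 fold changes of -1.51 to -1.27 and adjusted p of at most 0.000172, and -1.51 to -1.27 with one library left out. The number of genes that fell was 3725 with quantile normalization and 1460 with library size scaling. With one library left out, 2132 to 2805 genes rose and 1552 to 2331 fell, the lowest of both without Mdm2 ASO replicate 9. Over all list members, 327 to 421 rose and 192 to 323 fell with one library left out, and 192 fell without Mdm2 ASO replicate 9. For the difference between the diets, 2440 genes had a lower fold change on HFHC with quantile normalization, and with one library left out 1806 to 2375 had a higher and 1263 to 1654 a lower one. The cause of these shifts was not tested. Of 163 called genes that the text names, Mdm2 among them, 5 lost the call under at least 1 alternative, and no named gene that was called changed direction. These genes were named in large part for small p or large changes. The share that kept the call therefore does not describe called genes in general. Depth limits the genes with few control reads, whose fold changes are bounds or wide intervals, and 3 against 4 libraries cannot give a doubled one-sided permutation p under 0.0571.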

Other observations

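Beyond the lists, the genes here were chosen after their values were seen, by small adjusted p. Lipg, which encodes endothelial lipase, an enzyme that hydrolyses phospholipids of high-density lipoprotein, stood at 172, 159, 204 and 226 in the control libraries and 4122, 4677 and 4398 in the Mdm2 ASO libraries normalized counts. The treated libraries were close to each other and far above the controls (log2 fold change 4.54, SE 0.12, adjusted p = 7.2e-08 by limma-trend). Abcg1, a sterol exporter of macrophages, stood at 312, 346, 332 and 379.8 in the control libraries and 1625, 2014 and 1985 in the Mdm2 ASO libraries, without overlap (log2 fold change 2.45, SE 0.10, adjusted p = 2.8e-07). Pld4, an exonuclease of myeloid lysosomes that degrades nucleic acids, stood at 379.9, 304, 273 and 388 in the control libraries and 5834, 6238 and 5433 in the Mdm2 ASO libraries (log2 fold change 4.13, SE 0.13, adjusted p = 1.0e-07), and Pycard, the adaptor ASC of inflammasomes, at 63.0, 41.5, 48.5 and 67.0 in the control libraries and 1445, 1439 and 1199 in the Mdm2 ASO libraries (log2 fold change 4.64, SE 0.17, adjusted p = 1.7e-07).

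Epithelial keratins of hepatocytes were lower. Krt8 stood at 11161, 11344, 10988 and 9710 in the control libraries and 2843, 3444 and 4428 in the Mdm2 ASO libraries (log2 fold change -1.62, SE 0.14, adjusted p = 2.6e-05), and its partner Krt18 at 7984, 8030, 7192 and 6486 in the control libraries and 3163, 2754 and 3598 in the Mdm2 ASO libraries (log2 fold change -1.23, SE 0.11, adjusted p = 4.1e-05). No treated library of either reached a control. Sqstm1, encoding the autophagy receptor p62, stood at 15506, 15409, 16101 and 13933 in the control libraries and 7362, 7295 and 8412 in the Mdm2 ASO libraries, again without overlap (log2 fold change -0.99, SE 0.10, adjusted p = 6.8e-05). Aqp8, a water channel gene of hepatocytes and duct cells, stood at 2572, 2418, 2612 and 2484 in the control libraries and 701, 920.3 and 898 in the Mdm2 ASO libraries (log2 fold change -1.60, SE 0.10, adjusted p = 3.2e-06), and Ly6d at 3327, 1951, 2828 and 3249 in the control libraries and 498, 406 and 591 in the Mdm2 ASO libraries (log2 fold change -2.50, SE 0.19, adjusted p = 1.1e-05). Their values sit beside the fall of bile duct genes, and the part of duct cells in them was not tested.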
